A study of Canis lupus familiaris with 6 samples.

Results

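The genes described here are those of the epidermal growth factor (EGF) receptor family in Ras-transformed dog kidney cells: the receptors EGFR, ERBB2 and ERBB3, the ligands AREG, EREG, HBEGF, TGFA and BTC, and the receptor inhibitors ERRFI1 and LRIG1. They were taken as every probe of the array whose gene name is one of these 10, which gave 15 of the 43603 probes and 7 of the 10 genes. EGFR had 4 probes, ERBB3 3, ERBB2, HBEGF and ERRFI1 2 each, and EREG and LRIG1 1 each. AREG, BTC and TGFA had no probe under their own symbol. Their probes were found by another route and are kept apart from the 15.

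The samples were MDCK-pTR GFP-RasV12 cells, a line derived from Madin-Darby canine kidney (MDCK) epithelium that expresses GFP-tagged oncogenic RasV12 when tetracycline is added. They were grown without normal cells ("alone", 3 samples) or together with normal MDCK cells ("mixed", 3 samples) on collagen-coated dishes, and RasV12 was induced in both groups by 24 h of tetracycline. Cells positive for GFP were then sorted, and the RNA of each sample was hybridised to 1 array, so both groups carry RasV12 and differ in their neighbours. The methods of the study give 10 MDCK cells to 1 RasV12 cell, but 100 to 1 is given by the label of mixed replicate 2. A β-catenin mutant is named in the labels' text on RNA extraction, but not in the titles, and the methods list these cells without it. The line is driven by an inducible promoter and is a single established line. Nothing in the sources used here says that the samples of a group came from separate cultures, so the p-values measure the spread between these samples, which may be technical.

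EGF-family ligands are made as membrane-bound precursors, are shed by ADAM proteases and bind ErbB receptors, which then pair and signal through Ras and the ERK cascade. EGFR binds EREG, AREG, TGFA, HBEGF and BTC. ERBB2 has no known ligand and serves as a partner of the others, and ERBB3 binds neuregulins and has little kinase activity of its own. ERRFI1 (MIG6) inhibits the kinase of the receptors and LRIG1 promotes their removal. In kidney epithelium this family is known for its part in growth and repair.

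In mixed culture the EREG probe and 1 of the 4 EGFR probes were lower than in RasV12 cells alone, and no probe of the family passed the test in the other direction. However, 2 ERBB3 probes passed as higher when the replicate number was fitted as a block (limma adjusted p = 0.0361 and 0.0319). With that block 5.34% of all tested probes were called higher. Without alone replicate 1, 5 of the 15 probes of the family passed as higher, where 3497 of all 27757 tested probes were called higher. EREG fell to 60.7% of its level alone. The other 3 EGFR probes, and those of ERBB2, ERBB3, HBEGF, ERRFI1 and LRIG1, did not pass the test. The sequences of the EREG probe and of the EGFR probes are given here because the calls rest on them, and because the EGFR probes differed from one another. Each is 60 bases long, reads 5′ to 3′ along the transcript and is named by the gene and the base at which it starts in its target transcript, as are all probes below:
EREG 298: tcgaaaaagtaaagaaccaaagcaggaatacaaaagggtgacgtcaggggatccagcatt
EGFR 1370: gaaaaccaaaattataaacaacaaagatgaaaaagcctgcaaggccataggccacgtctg
EGFR 2179: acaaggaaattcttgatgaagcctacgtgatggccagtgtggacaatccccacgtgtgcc
EGFR 2769: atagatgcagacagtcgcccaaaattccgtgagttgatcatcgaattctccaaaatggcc
EGFR 3476: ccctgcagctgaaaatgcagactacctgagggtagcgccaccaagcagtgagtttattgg

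On the dog genome build canFam3 the EREG probe lies on the plus strand at chr13:62876981-62877040. The EGFR probes lie on the plus strand of chromosome 18, with the probe at 1370 at chr18:6005064-6006240 and the probe at 2179 at chr18:6016369-6022132. Those spans of 1177 and 5764 bases are longer than the probe, so both probes cross an intron. The probe at 2769 lies within 60 bases at chr18:6037700-6037759 and the probe at 3476 at chr18:6041565-6041624. The share of G and C was 40% in the EGFR probe at 1370, 51.7%, 45% and 53.3% in the next 3 along the transcript, and 43.3% in the EREG probe.

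Values are log2 intensities relative to the 75th percentile of their array (an intensity of 592 to 700), and a probe counts as detected where the scanner software called it well above background. Such probes made up 60.8% to 66.4% of an array. The test was limma's moderated test, two-sided, with Benjamini-Hochberg adjustment over the 26535 probes detected on all arrays of at least 1 group and a threshold of 0.05. The number of arrays limits the precision. Each of the 2 slides held the arrays of 1 group, and for every value below the slide and the condition cannot be told apart. Of the 10 epithelial markers looked for 9 had a probe, and all 9 were detected (EPCAM and KRT18 among them). Of the markers of other cell types, 4 of 6 leukocyte genes (CD14, CD68, CD79A and CD3E), 3 of 5 endothelial genes (KDR, PECAM1 and VWF) and 4 of 7 fibroblast genes (COL1A1, COL1A2, LUM and PDGFRB) were detected and tested, whereas PTPRC, CDH5, TEK, COL3A1 and PDGFRA were detected on none of the 6 arrays. Normal MDCK cells carried over in the sort have no marker of their own on this array.

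All 15 probes were detected on all 6 arrays and were tested. Of them 2 (13.3%) passed the test, against 11.2% of all tested probes, a share near the background. Both were lower in mixed culture, where 5.72% of all tested probes were called lower and 5.5% higher. The alone and mixed values did not overlap for 8 of the 15 (5 higher and 3 lower in mixed culture), against 37.2% of all tested probes (17.8% higher and 19.4% lower). The median difference of the 15 was 0.02 on the log2 scale, within a range of -0.86 to 0.61, and that of all tested probes was -0.0037. Scaling to the spike-in controls in place of the 75th percentile moved the median of all tested probes by -0.16, and the differences of the family that it moved by over 1.5 times are given below.

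**Figure D1:**
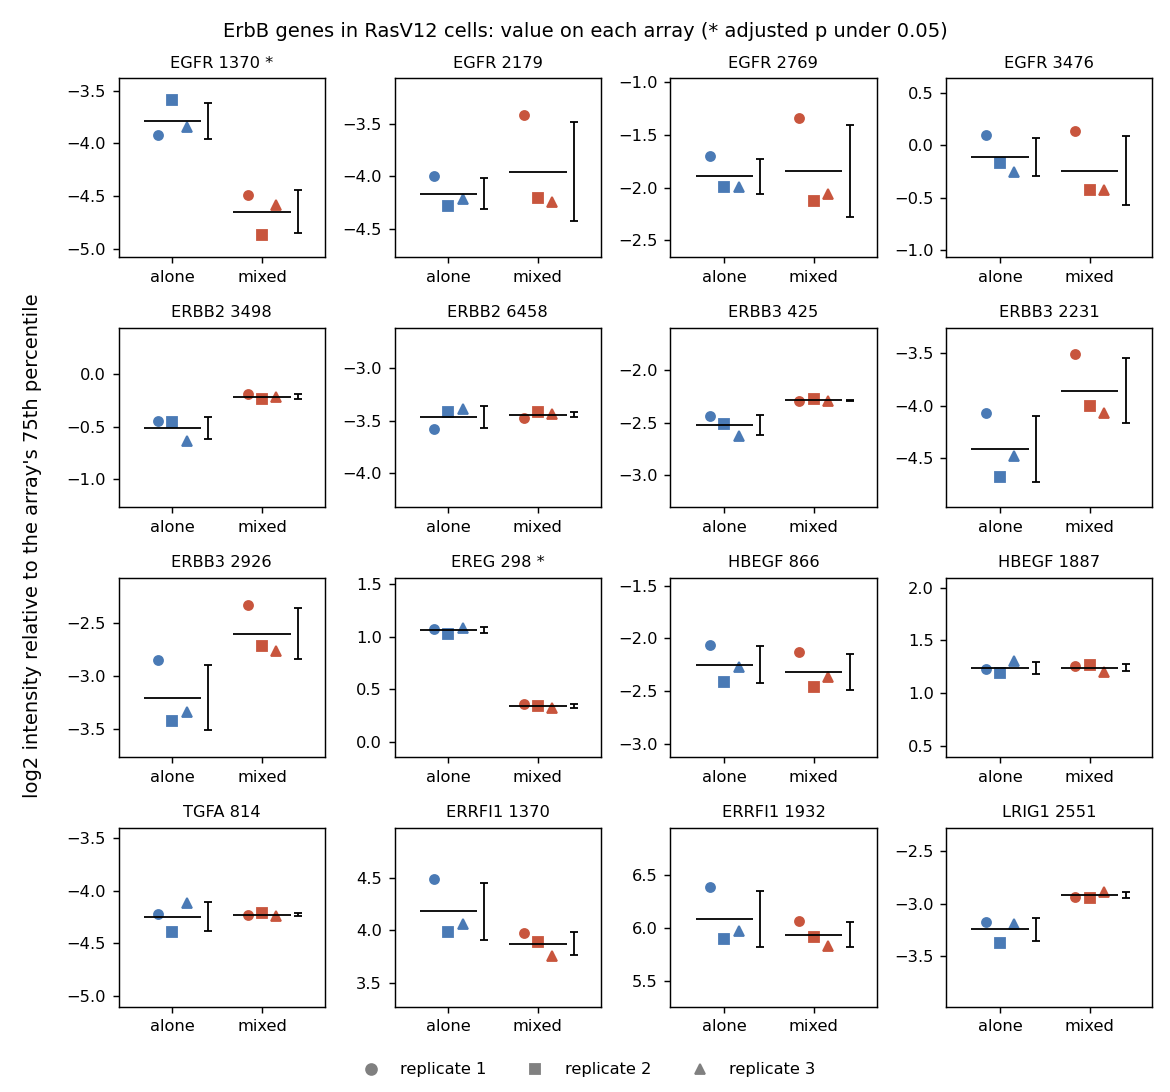
Log2 intensity relative to the array's 75th percentile (vertical axes, each spanning the same 1.7 log2 units) for the 15 probes and the TGFA probe in RasV12 cells alone (blue) and from mixed culture (red). Symbols are single arrays by replicate number, horizontal lines are means of 3 arrays, bars to the right are SDs and an asterisk marks an adjusted p under 0.05. EREG fell from a mean of 1.06 to 0.34, and its groups lie far apart compared with their SDs.

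EREG encodes epiregulin, a ligand of EGFR and ERBB4. Its log2 value was 1.07, 1.03 and 1.09 on the alone arrays and 0.36, 0.34 and 0.33 on the mixed arrays. All 3 mixed arrays lay below all 3 alone arrays, and the arrays of a group lay close together (SD 0.030 alone and 0.018 mixed, n = 3 each). In units of intensity the probe read 1303 to 1427 alone and 743 to 822 mixed. The difference was -0.72 on the log2 scale (SE 0.064, limma adjusted p = 0.0103), or 60.7% of the level alone with a 95% interval of 54.6% to 67.6%. In bulk RNA, fewer cells with the transcript and less of it per cell cannot be told apart. By p-value the probe ranked 39 among all tested probes. Across all the alternative settings the difference stayed between -0.88 and -0.67, and its adjusted p lay between 0.00271 and 0.0743, under the threshold in 9 of 14 of them. Without alone replicate 2, alone replicate 3, mixed replicate 2 or mixed replicate 3 the call was lost (limma adjusted p from 0.0519 to 0.0743) while the difference stayed between -0.74 and -0.71.

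HBEGF encodes heparin-binding EGF-like growth factor. Its probe at 1887 had log2 values of 1.23, 1.19 and 1.30 alone and 1.25, 1.27 and 1.20 mixed, which overlapped (difference -0.000185, 95% interval -0.16 to 0.16, and -0.16 with spike-in scaling). The probe at 866 had -2.06, -2.41 and -2.27 alone and -2.13, -2.46 and -2.37 mixed. Those groups overlapped as well, and the difference of -0.07 (95% interval -0.37 to 0.23, limma adjusted p = 0.741, and -0.23 with spike-in scaling) did not pass the test.

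The TGFA probe was identified by the array's description of its target and was not part of the 15. Its log2 values were -4.23, -4.40 and -4.12 alone and -4.23, -4.22 and -4.24 mixed, at intensities of 31.3 to 37.0. The groups overlapped, and the difference was 0.02 (95% interval -0.19 to 0.23, limma adjusted p = 0.900), or -0.14 with spike-in scaling. AREG (amphiregulin) and BTC (betacellulin) each had 1 probe, named through its RefSeq gene ID, which was detected on none of the 6 arrays. The AREG probe read 1.87 to 7.40 units of intensity and the BTC probe 2.69 to 5.46, where the dimmest detected probe of an array read between 9.15 and 14.6. No fold is given for either.

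EGFR, the receptor of these ligands, gave a different answer by probe. On the probe at 1370 the log2 values were -3.92, -3.59 and -3.84 alone and -4.49, -4.88 and -4.58 mixed. All mixed arrays lay below all alone arrays. The probe fell by 0.86 on the log2 scale (SE 0.135, limma adjusted p = 0.0193), to 54.9% of the level alone with a 95% interval of 43.9% to 68.7%. It was dim, with intensities of 40.9 to 58.1 alone and 22.1 to 28.1 mixed. With the background corrected by normexp, which adds an offset of 50 to every signal, the difference shrank to -0.34 and remained called (limma adjusted p = 0.0186). Over all the settings its adjusted p lay between 0.0132 and 0.0867, under the threshold in 8 of 14. Without alone replicate 2, alone replicate 3, mixed replicate 2 or mixed replicate 3 it was not called (limma adjusted p from 0.0782 to 0.0867).

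The next probe along the EGFR transcript, at 2179, had log2 values of -4.00, -4.28 and -4.21 alone and -3.41, -4.21 and -4.24 mixed. Mixed replicate 1 stood above the other 5 arrays, which lay within the same range. The difference was 0.21 (SE 0.229, limma adjusted p = 0.574), with spike-in scaling it was 0.05, and without mixed replicate 1 it was -0.06.

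The probe at 2769 showed the same array standing apart. Its values were -1.70, -1.99 and -1.99 alone and -1.34, -2.13 and -2.06 mixed. The difference was 0.05 (SE 0.220, limma adjusted p = 0.905), and without mixed replicate 1 it was -0.20. Scaling to the spike-in controls turned its direction, to -0.11.

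The probe at 3476, nearest the 3′ end of the 4, read 0.09, -0.17 and -0.26 alone and 0.13, -0.43 and -0.43 mixed. The groups overlapped, and the difference was -0.13 (SE 0.178, limma adjusted p = 0.661), or -0.29 with spike-in scaling. Its 95% interval, -0.56 to 0.30, overlaps at its lower end with that of the probe at 1370, -1.19 to -0.54. Averaged over its 4 probes EGFR differed by -0.18 (limma adjusted p = 0.520 over 19625 genes), and EREG was then the only called gene of the 7.

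The disagreement between the EGFR probes was compared within each array, where scaling between arrays cancels. The value at 1370 minus that at 2179 was 0.08 to 0.69 alone and -1.07 to -0.34 mixed, a change of -1.07. Against the probe at 2769 the change was -0.91 and against that at 3476 it was -0.74. For each of these 3 pairs the alone and mixed arrays did not overlap. Every other pair of EGFR probes also did not overlap, with changes of 0.16 to 0.34. In all, 12 pairs of probes of 1 gene, which share probes, were compared and 8 did not overlap, against 26.5% of the 9506 such pairs over all genes with a symbol. Each of the 8 had an exact two-sided permutation p of 0.1, the smallest that 3 arrays against 3 can give, and 0.15 after adjustment over the 12 pairs, so none passed the threshold. A difference between 2 probes does not show which of them read the transcript level. Whether the probe at 1370 reads another set of EGFR transcripts was not tested.

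**Figure D2:**
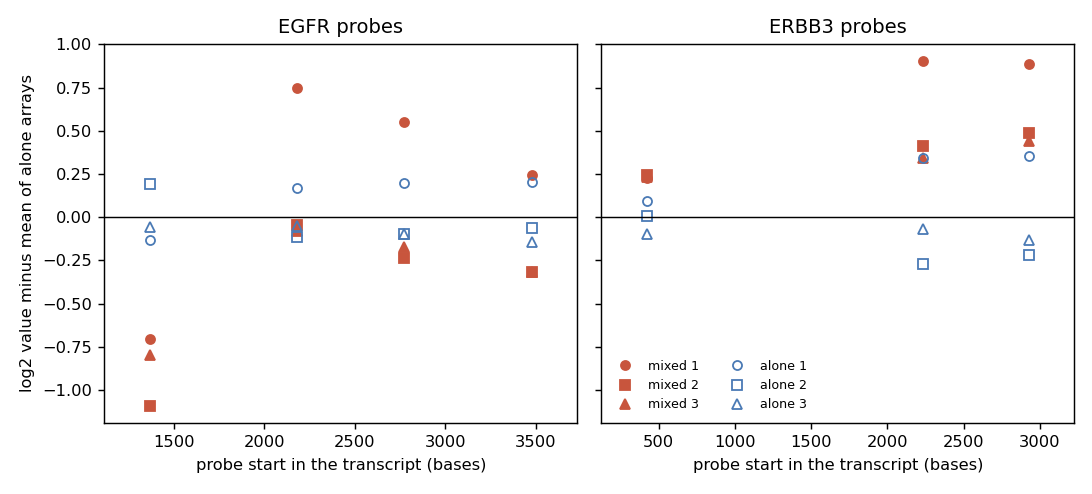
Log2 value minus the mean of the alone arrays (vertical axis) for each EGFR probe (left) and each ERBB3 probe (right), against the base where the probe starts in the transcript (horizontal axis). Filled red symbols are mixed arrays and open blue symbols alone arrays. For EGFR, only the probe at 1370 has all mixed arrays below all alone arrays, and mixed replicate 1 lies highest at 2179, 2769 and 3476.

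ERBB3 pointed the other way without passing the test. At 425 the log2 values were -2.44, -2.52 and -2.63 alone and -2.30, -2.28 and -2.29 mixed, a difference of 0.24 (SE 0.076, limma adjusted p = 0.0918) that was 0.07 with spike-in scaling. The probe at 2231 had -4.07, -4.68 and -4.48 alone and -3.51, -4.00 and -4.07 mixed, and that at 2926 had -2.85, -3.43 and -3.34 alone and -2.32, -2.72 and -2.76 mixed. On all 3 probes every mixed array lay above every alone array, at 2231 by a margin of under 0.01. The difference was 0.55 at 2231 (SE 0.206, limma adjusted p = 0.127) and 0.61 at 2926 (SE 0.188, limma adjusted p = 0.0844), and with normexp 0.29 and 0.40. When the replicate number was fitted as a block both of these passed (limma adjusted p = 0.0361 and 0.0319), and the count of called probes of the family went from 2 to 4, where 10.6% of all probes were called with that block and 5.34% called higher. The range of the adjusted p over all the settings was 0.0361 to 0.308 at 2231 and 0.0210 to 0.234 at 2926. Without alone replicate 1 all 3 probes passed (limma adjusted p = 0.0334 at 425, 0.0466 at 2231 and 0.0210 at 2926). In that setting 3497 of all 27757 tested probes were called higher.

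The ERBB3 probes lie on canFam3 at chr10:413882-413941, chr10:421807-421866 and chr10:423124-423183, in the order of the transcript. A further probe, described on the array as like ERBB3 but on the opposite strand, was detected on 2 of the 6 arrays and was not tested.

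ERBB2, the partner receptor, was measured by a probe at 3498 (chr9:22761253-22761312) and one at 6458 (chr9:22758719-22758778). At 3498 the log2 values were -0.45, -0.45 and -0.63 alone and -0.19, -0.24 and -0.22 mixed, so the mixed arrays lay above the alone arrays. The difference of 0.30 (SE 0.079, 95% interval 0.11 to 0.49, limma adjusted p = 0.0601) did not pass. It passed with normexp (0.28, limma adjusted p = 0.0303) and without alone replicate 1 (0.33, limma adjusted p = 0.0357), within a range of 0.0303 to 0.473 over all the settings. With spike-in scaling the difference was 0.14. At 6458 the values were -3.58, -3.42 and -3.39 alone and -3.47, -3.42 and -3.44 mixed. These groups overlapped, with a difference of 0.02 (95% interval -0.17 to 0.21, limma adjusted p = 0.879) that turned to -0.14 with scaling to the spike-in controls.

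LRIG1, the transmembrane inhibitor that promotes receptor degradation, had 1 probe (chr20:25031894-25031953). Its log2 values were -3.17, -3.37 and -3.19 alone and -2.93, -2.94 and -2.89 mixed, with all mixed arrays above all alone arrays. The difference was 0.32 (SE 0.081, 95% interval 0.13 to 0.52), and its limma adjusted p of 0.0510 missed the threshold. With spike-in scaling the difference was 0.16 (limma adjusted p = 0.356). The adjusted p was 0.0474 when probes detected on all 6 arrays alone were tested, and 0.0285 to 0.356 over all the settings.

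ERRFI1, the cytoplasmic inhibitor induced by EGFR signalling, had probes at 1370 and 1932. At 1370 the log2 values were 4.49, 3.99 and 4.06 alone and 3.98, 3.89 and 3.76 mixed, which did not overlap. The difference of -0.30 (SE 0.147, limma adjusted p = 0.209) did not pass, nor did the -0.47 given by spike-in scaling (limma adjusted p = 0.0535). At 1932 the values were 6.39, 5.90 and 5.97 alone and 6.06, 5.91 and 5.83 mixed, which overlapped, with a difference of -0.15 (SE 0.144, limma adjusted p = 0.519), or -0.31 with spike-in scaling. Alone replicate 1 was the highest array on both probes, and without it the differences were -0.15 at 1370 and 0.0011 at 1932.

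**Figure D3:**
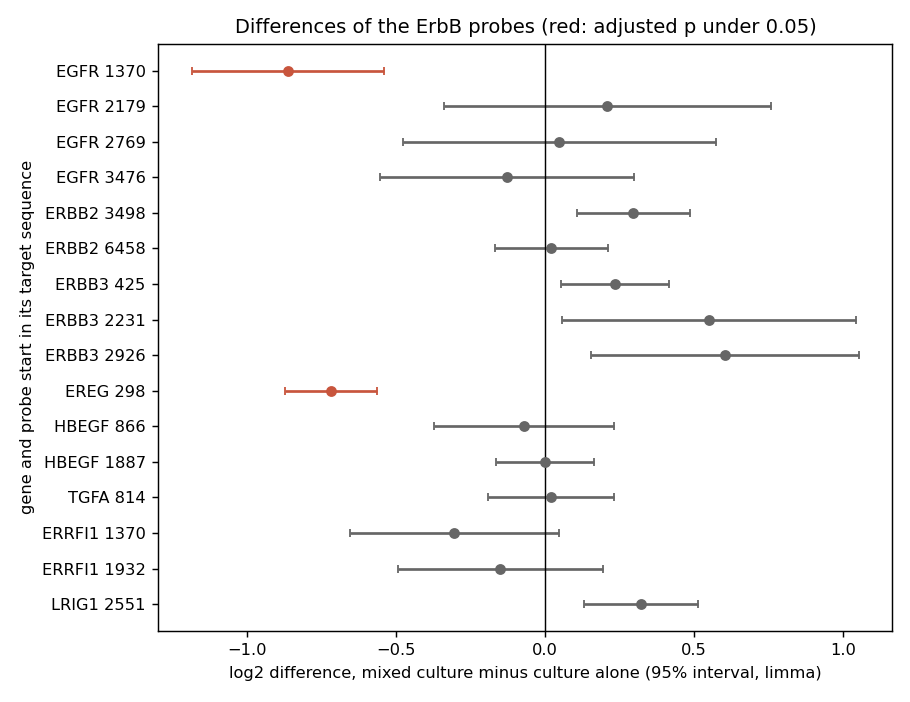
Log2 difference of mixed over alone (horizontal axis) for the 15 probes and the TGFA probe, each row a probe named by its gene and start, with 95% intervals from limma (3 arrays against 3). Red rows, EREG and the EGFR probe at 1370, have an adjusted p under 0.05. The intervals of the other 3 EGFR probes include 0.

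Replicate 1 read high on many of these probes. It was the highest array of its group in both groups for 9 of the 15 (60%), against 23.4% of all tested probes. These were EGFR at 2179, 2769 and 3476, ERBB2 at 3498, ERBB3 at 2231 and 2926, HBEGF at 866 and both ERRFI1 probes. Neither EREG nor the EGFR probe at 1370 was among them. Arrays of 1 number sat at 1 position of their slides, and the part of the position in these values was not tested. Leaving out alone replicate 1 raised the count of called probes of the family to 7 (5 higher and 2 lower in mixed culture). Leaving out mixed replicate 1 kept the count at 2, and leaving out any one of the other 4 arrays gave 0. The count over all probes moved with it, from 2978 to 7335 and 2009 in the first 2 cases and to between 7 and 24 in the other 4. The 7335 were 3497 higher and 3838 lower, of 27757 tested.

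The genes most alike in pattern were named for EGFR by its brightest probe, at 3476, over the 6 arrays and 10059 genes. They were MED27 (Pearson r = 0.998), BDKRB1 (0.997), WDR45 (0.995), SDHA (0.990) and MYO9B (0.990), and 54 genes (0.537%) had an r over 0.95. For EREG, added after its values were seen, they were POLR2C (0.999), DCTN6 (0.998), GTF2E2 (0.998), RGS2 (0.997) and N6AMT1 (0.997), and 442 genes (4.39%) had an r over 0.95. The 6 arrays share their 2 groups and slides, so any gene with a difference between groups like that of EREG scores high. The EGFR probe at 3476 overlapped between groups and was highest on replicate 1 in both, so its list follows that pattern. The called EGFR probe at 1370 was not compared in this way.

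Other genes of the pathway were taken from 6 lists by role, with 105 tested probes of 59 genes. Of these probes 13 (12.4%) were called, 7 higher and 6 lower in mixed culture, against 11.2% of all tested probes. The median difference over the 105 was 0.0029. With spike-in scaling 2 of the 13 remained called. Among the remaining ErbB receptors and ligands, ERBB4, EPGN and NRG3 were detected on none of the arrays and EGF on 1 of 6. NRG1 and NRG2, which encode neuregulins, gave 3 tested probes and no call. NRG1 at 342 had means of 1.38 alone and 0.60 mixed without overlap (difference -0.78, limma adjusted p = 0.0770, and 0.0424 with the replicate block), whereas its probe at 1820 differed by -0.04 (limma adjusted p = 0.868). The neuregulins were named after their values were seen.

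The proteases and their partners that shed the ligands, ADAM10, ADAM17, RHBDF1 and RHBDF2, had 7 tested probes, no call and a median difference of 0.03. Among the receptor adaptors and effectors 3 of 26 probes (11.5%) were called. GAB1, a docking protein, rose on 2 of its 3 probes, by 0.33 and 0.38 (limma adjusted p = 0.0442 and 0.0363), and the third differed by 0.32 without passing (limma adjusted p = 0.233). STAT3, a transcription factor, fell by 0.30 on 1 of its 4 probes, at 3169 (limma adjusted p = 0.0447). The other 3 overlapped between groups, with differences of 0.03, 0.01 and -0.14 (limma adjusted p = 0.845, 0.951 and 0.408), the last of them on a probe that starts at 3175. None of the 3 called probes was called with the replicate block (limma adjusted p = 0.0602 to 0.0608).

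Among the genes of receptor turnover 3 of 29 probes (10.3%) were called, and the median was 0.12. LRRK1, a kinase of receptor trafficking, rose on probes at 5993 (0.38) and 7698 (0.49), with limma adjusted p of 0.0364 and 0.0325. STAM, an endosomal sorting protein, fell by 0.43 (limma adjusted p = 0.0458). With the replicate block the LRRK1 probe at 7698 stayed called (limma adjusted p = 0.0372), and the LRRK1 probe at 5993 and STAM did not (0.0552 and 0.0780).

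In the ERK cascade 1 of 22 probes (4.55%) was called and the median was -0.04. HRAS fell by 0.51 (SE 0.113, limma adjusted p = 0.0377, and 0.0554 with the replicate block), at intensities of 120480 to 212592. The sum of the linear values of the list was 342 to 361 alone and 237 to 296 mixed, in multiples of the array's 75th percentile. The HRAS probe made up 293 to 312 of it alone and 189 to 248 mixed, and the sum of the other probes was 48.4 to 54.8 alone and 47.3 to 48.3 mixed. Whether the HRAS probe also reads the RasV12 transgene was not tested.

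The genes whose transcription ERK signalling drives had the highest share of calls of the 6 lists, 6 of 18 probes (33.3%), against 11.2% of all tested probes. The calls went in both directions and the median was -0.33. EGR1, an immediate early transcription factor, rose by 0.67 and 0.77 on its probes (limma adjusted p = 0.0183 and 0.0157), and FOS rose by 0.67 (limma adjusted p = 0.0393). EPHA2, a receptor kinase, fell by 0.71 (limma adjusted p = 0.0242), CCND1, the cyclin D1 gene, fell by 0.59 (limma adjusted p = 0.0366) and FOSL1 fell by 0.52 (limma adjusted p = 0.0193). CCND1 was not called with the replicate block (limma adjusted p = 0.0633), and the other 5 called probes of the list were. IER3 differed by -0.49 and -0.46 on its probes, with overlap. It was called with that block (limma adjusted p = 0.0377 and 0.0409) but not in the reported fit (limma adjusted p = 0.215 and 0.246). FOSL1 lies outside the naming rule and was named after its values were seen, as were IER3, SPRY2, ETV5 and DUSP6, an ERK phosphatase. DUSP6 had 4 probes with every mixed array below every alone array, as had 19.4% of all tested probes. At 2280 the lowest alone value, 6.441, lay just above the highest mixed value, 6.435. The 4 differences were -0.34 to -0.19, and none was called (limma adjusted p = 0.0606 to 0.205). Uncalled and higher in mixed culture, with overlap, were SPRY2 (0.28, limma adjusted p = 0.307) and ETV5 (0.10, limma adjusted p = 0.675).

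**Figure D4:**
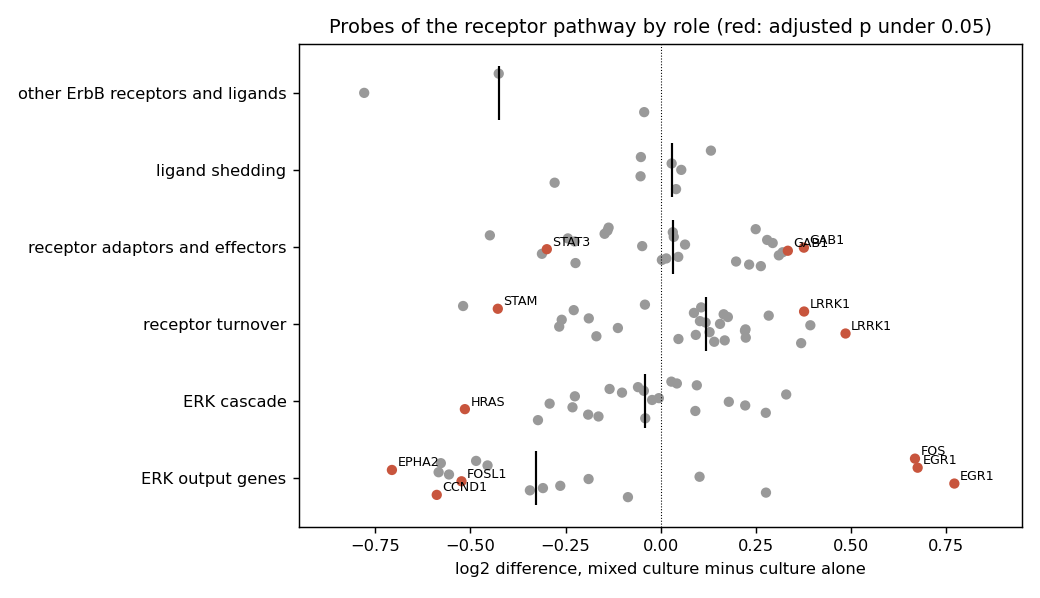
Log2 difference of mixed over alone (horizontal axis) for the 105 tested probes of the pathway, in rows by role. Points are probes, red ones with an adjusted p under 0.05 and named, and vertical bars are medians of each list. The ERK output genes hold calls on both sides, with EGR1 and FOS higher and EPHA2, CCND1 and FOSL1 lower in mixed culture.

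Of the 15 tested probes of the epithelial markers 2 (13.3%) were called, near the 11.2% of all tested probes. Both were higher in mixed culture, CLDN3 by 0.76 (limma adjusted p = 0.0142) and 1 of the 2 OCLN probes by 0.41 (limma adjusted p = 0.0245). CDH1, the E-cadherin gene, differed by -0.37, -0.36 and -0.16 on its 3 probes, the first 2 without overlap, and none was called (limma adjusted p = 0.0648, 0.110 and 0.510). CLDN4 differed by 0.72, TJP1 by 0.28 on both probes and the other OCLN probe by 0.33, all without overlap. None of these was called (limma adjusted p = 0.0842, 0.0616, 0.0675 and 0.0758), but CLDN4 was with the replicate block (limma adjusted p = 0.0315). CLDN7 differed by -0.52 with overlap (limma adjusted p = 0.218). CDH1 and these uncalled markers lie outside the naming rule. The summed epithelial level overlapped between groups (799 to 964 alone and 844 to 973 mixed, in multiples of the 75th percentile). No probe of the fibroblast, leukocyte or endothelial lists was called. The summed fibroblast level was 1.72 to 1.83 alone and 1.87 to 2.03 mixed, the leukocyte level 1.83 to 1.98 and 1.99 to 2.13, and the endothelial level 5.19 to 7.48 and 5.66 to 7.55. The first 2 sums did not overlap between groups, and each came mostly from 1 probe. These were COL1A2 at 2309 (difference 0.19, limma adjusted p = 0.124) and CD68 (difference 0.10, limma adjusted p = 0.389). The part of these sums in the results was not tested.

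**Figure D5:**
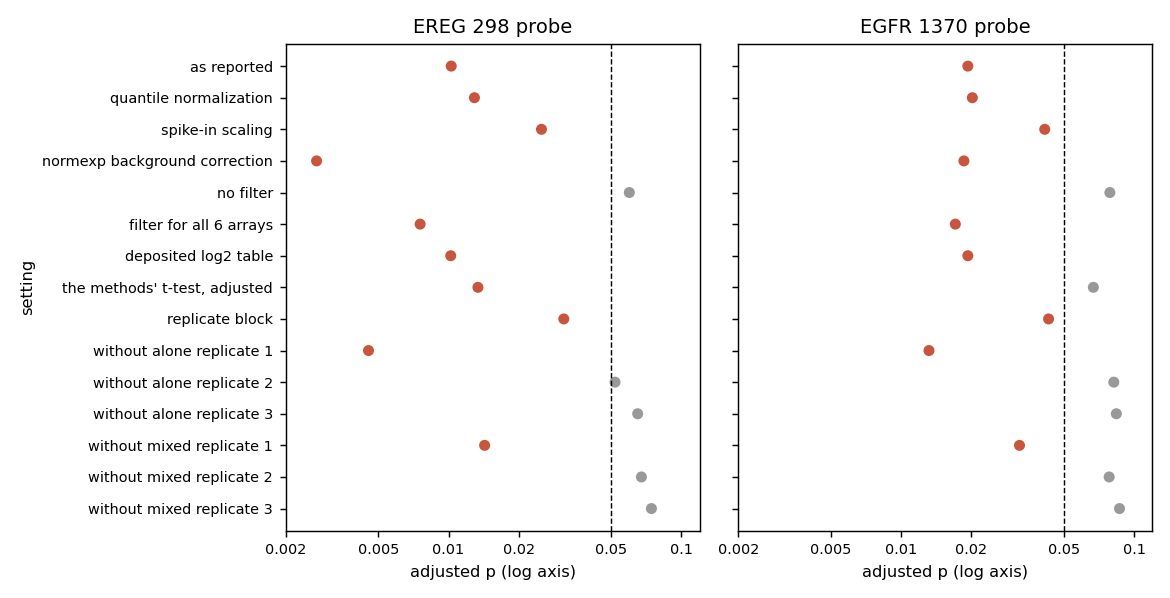
Adjusted p (horizontal log axis) of the EREG probe (left) and the EGFR probe at 1370 (right) under the reported setting and each of 14 alternatives (rows), with the dashed line at 0.05. Red points lie under the line, for EREG in 9 of the 14 alternatives and for EGFR in 8, and the 4 settings without alone replicate 2 or 3 or mixed replicate 2 or 3 lie above it for both.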

How the data were processed

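RNA of 3 samples of RasV12 cells alone and 3 from mixed culture was measured on 1-colour Agilent canine arrays, grouped by the deposited labels. The authors deposited the output of Agilent Feature Extraction 10.10.1.1, with an intensity for each spot (processed signal, mean signal and background), and a table of log2 values whose columns equal the log2 processed signal minus about the 75th percentile of each array.

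Control spots and outlier spots were left out, spots of a probe averaged, and log2 processed signals taken minus the 75th percentile over the 43603 probes. Probes well above background on all arrays of a group were tested with limma 3.58.1 (R 4.3.3, lmFit and eBayes). Summaries used Python 3.11.15, pandas 2.3.3, numpy 2.4.6 and scipy 1.17.1, and plots matplotlib 3.10.9. Probes of a gene were kept apart. Names and canFam3 positions are the array's own, with 547 of the 932 probes named only by a LOC number renamed by RefSeq gene ID. The sources used here name no test for the arrays of these cells. The unpaired two-tailed t-test that the study used for arrays of its other cell line was run as an alternative, called the methods' t-test.

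The members and lists were chosen with earlier results of these data known. Named were all members, the pathway genes called (at most 4 a list by size), and the 5 genes most like EGFR and like the member with the largest called difference, which is also EGFR.

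The replicate numbers are shared by the groups. After removing group means, same-numbered arrays correlated at 0.349, 0.162 and 0.296, all above 0.1. The replicate number was therefore fitted as a block in an alternative, and the reported fit has no block. Whether the numbers pair the samples is not known. Alone replicate 2 correlated more with mixed replicate 3 (0.238). In simulated data for 26535 probes with 200 changed, the tested procedure called 81% of 2-fold changes, 91% of 4-fold changes and 4 other probes, and it made 0 calls where nothing was changed. The simulated noise was independent between arrays, without a slide or replicate effect. These shares therefore do not cover calls that such effects could give in the real arrays. Noise levels were assigned to the simulated probes at random, regardless of their intensity. The reported differences of the family were all under 2-fold, so the shares do not give the recovery at their sizes.

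Alternatives were quantile normalization, spike-in scaling (7 of 10 controls), normexp, 2 filters, the deposited table, the methods' t-test, the replicate block, the mean over probes, and leaving out each array. No fit with a block for slide exists, because a slide holds 1 group.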

Additional observations from a re-analysis of the deposited data

How the results depend on the processing

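The 2978 calls over all probes became 1004 with spike-in scaling (30.2% of them higher, against 49.0% as reported, with the median of all probes moving by -0.16), 12 with no filter (where 43603 probes were tested), and 826 adjusted or 7315 unadjusted by the methods' t-test. Leaving out 1 array gave 7 to 7335. The 2 called probes of the family became 0 with no filter, 1 adjusted or 5 unadjusted by the methods' t-test, 4 with the replicate block and 1 with the mean over the probes of each gene, and 0 to 7 with 1 array left out. The 13 called probes of the pathway lists became 2 with spike-in scaling, 20 with normexp, 0 with no filter, 2 adjusted or 28 unadjusted by the methods' t-test, and 0 to 31 with 1 array left out, and were 11 with the replicate block, 6 of them shared with the 13. Beyond the calls named above, the block changed none of the family. The 8 pairs of probes that did not overlap were 7 with normexp and 8 to 10 with 1 array left out, and no other setting was run for them. The cause of these changes was not tested.

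Of 240 values of the 16 single probes under an alternative, 200 kept direction and side of the threshold, 11 lost the call, 12 gained one and 17 changed sign, none of the last from a called value. The 240 include the methods' t-test unadjusted, where the threshold was set on the raw p. Under it ERBB2 at 3498, ERBB3 at 425 and LRIG1 gained a call. Spike-in scaling turned EGFR at 2769 to -0.11, ERBB2 at 6458 to -0.14 and TGFA to -0.14, quantile normalization turned ERBB2 at 6458 to -0.013, HBEGF at 1887 to 0.0081 and TGFA to -0.011, and normexp turned HBEGF at 1887 to 0.0069. With 1 array left out the differences ranged from -0.061 to 0.35 for EGFR at 2179, -0.20 to 0.19 at 2769, -0.038 to 0.060 for ERBB2 at 6458, -0.16 to 0.023 for HBEGF at 866, -0.025 to 0.030 at 1887, -0.054 to 0.083 for TGFA and -0.24 to 0.0011 for ERRFI1 at 1932. The TGFA, AREG and BTC probes, added after seeing the data, left the count at 2. EGFR at 1370 and 2179, ERBB3 at 2231 and TGFA were dim, at 22.1 to 59.2 units of intensity.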
